A study of Oryza sativa Japonica Group with 64 samples.

Results

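Sporopollenin is the chemically resistant polymer of the outer pollen wall, and 8 rice genes for its synthesis and export were followed in anthers and flag leaves of a photoperiod-sensitive male sterile mutant. The genes were chosen by their locus identifiers, and all 8 were among the 55986 genes counted in both tissues. They were CYP703A3 (LOC_Os08g03682), CYP704B2 (LOC_Os03g07250), ACOS12 (LOC_Os04g24530), DPW (LOC_Os03g07140), PKS1 (LOC_Os10g34360), PKS2 (LOC_Os07g22850), TKPR1 (LOC_Os09g32020) and ABCG15 (LOC_Os06g40550). RNA was sequenced from the csa mutant, which lacks normal function of the MYB transcription factor CSA (CARBON STARVED ANTHER), and from the wild type (WT), both of the japonica cultivar 9522 grown in paddy fields. Plots were kept either in short days (SD, 12 h of light, made with a lightproof cover from 18:00 to 6:00) or in the natural long days of the season (LD, about 14.5 h). In SD csa is known to be male sterile and in LD fertile, and the comparisons ask how the genes of the pathway differ between genotypes under each photoperiod. Anthers were at stage 12, a late stage of development at which the pollen matures. The anther groups, each sampled at 16:00 and at 04:00, were csa in SD, WT in SD, csa in LD and WT in LD, with 2 biological replicates per group and time, 16 libraries in all. Flag leaves of the same 4 combinations of genotype and photoperiod were sampled every 4 h over a day that began at 08:00 and ended at 04:00, again with 2 replicates, which gave 48 libraries. The labels name the mutant only as csa, without describing its allele, and do not say whether a library came from 1 plant or from several.

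Sporopollenin precursors are made in the tapetum, the innermost layer of the anther wall, which feeds the developing pollen and later degenerates. Fatty acids are activated with coenzyme A, hydroxylated, extended by polyketide synthases and reduced, and the products leave the tapetal cell through ABC transporters and are polymerised on the surface of the microspores. In rice, loss of several of these genes leaves pollen without a proper outer wall and the plant male sterile. The pathway is at its height around the microspore stages, before pollen matures.

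Libraries held between 18.05 and 25.96 M counts in anthers (median 21.08 M) and between 12.91 and 20.45 M in leaves (median 15.37 M). Levels are given as CPM, the count of a gene divided by the total count of its library in M, which is a scale per gene and not per transcript length, so levels are compared between libraries and not between genes. Transcripts of CSA itself were present in all anther groups, with 91.8 to 138 CPM in csa SD and 80.1 to 126 CPM in WT SD, and with 109 to 245 CPM in csa LD and 36.6 to 74.0 CPM in WT LD. The mutant thus still had the transcript, more of it than WT in LD (log2 difference 1.40, edgeR adjusted p = 0.000962), and its level is no check of the genotype labels. Genotype was checked in leaves with 9 genes whose labelled genotypes were apart by a log2 difference of at least 2. This had to hold, in the same direction, in SD anthers, in LD anthers and in LD leaves at times other than 12:00. The check thus takes the anther labels as given. In the 4 leaf libraries labelled SD 12:00, all 36 values lay nearer the other genotype, while 0 of 180 did at the other SD times and 0 of 36 at LD 12:00. For the leaf tests it is therefore also said whether calls held without 12:00, while leaf levels include these libraries under their labels. The anther groups also differed in 5 late pollen markers (MADS62, MADS63, MADS68, RUPO and EXPB1), whose summed level was 1.16 to 1.66 CPM in csa SD and 26.2 to 138 CPM in WT SD, and 2.18 to 87.2 CPM in csa LD and 170 to 502 CPM in WT LD. EXPB1, a pollen expansin, ranged from 0 to 0.0770 CPM in csa SD, against 0.589 to 80.0 CPM in WT SD.

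In short days, csa anthers had lower levels than WT anthers of 7 of the 8 genes, and of none a higher level. Of all 25203 genes tested in this comparison 21.6% were lower and 25.8% higher (edgeR quasi-likelihood test, Benjamini-Hochberg adjusted p below 0.05). The median log2 difference was −2.63 over the 8 genes and 0.08 over all genes tested. The one gene that did not pass was CYP704B2. In whole anthers, fewer cells of a type and less RNA per cell cannot be told apart.

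The first enzymes of the pathway make and activate its fatty acid substrates. DPW, a plastid reductase that makes fatty alcohols for the anther cuticle and the pollen wall, had 104, 92.1, 34.5 and 31.1 CPM in csa SD (the 2 replicates at 16:00, then those at 04:00), against 331, 144, 303 and 180 CPM in WT SD. All csa libraries lay below all WT libraries, and the difference was −2.13 ± 0.37 (log2 fold change ± SE here and below, edgeR with each time weighted equally, adjusted p = 0.000813). ACOS12, the acyl-CoA synthetase that activates fatty acids for the later steps, had 49.3, 55.4, 4.58 and 1.90 CPM in csa SD, against 217, 7.93, 129 and 17.0 CPM in WT SD. The groups overlapped, since the csa libraries of 16:00 lay above the second WT replicate of either time, and the difference was −2.82 ± 1.05 (edgeR adjusted p = 0.0435).

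Of the 2 hydroxylases, 1 passed the test. CYP703A3, which hydroxylates medium-chain fatty acids within the chain, had 30.0, 17.0, 1.08 and 1.84 CPM in csa SD, against 155, 32.8, 115 and 24.2 CPM in WT SD. Only the highest csa library passed the lowest WT library, and the difference was −3.85 ± 0.88 (edgeR adjusted p = 0.00409). CYP704B2, which hydroxylates longer fatty acids at the end of the chain, had 75.8, 110, 23.7 and 11.7 CPM in csa SD, against 336, 19.9, 186 and 40.7 CPM in WT SD. The WT replicates differed from each other by more than the genotypes did, as they did for ACOS12 and PKS2, which passed. For CYP704B2 the difference of −1.84 ± 0.90 did not pass (edgeR adjusted p = 0.109).

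The polyketide synthases and the reductase after them were lower in csa SD. PKS1 had 114, 189, 24.3 and 14.6 CPM in csa SD, against 780, 75.2, 485 and 212 CPM in WT SD, with a difference of −2.87 ± 0.93 (edgeR adjusted p = 0.0245). PKS2 had 2.65, 0.258, 0.193 and 0.0526 CPM in csa SD, against 21.9, 0.484, 12.7 and 0.214 CPM in WT SD, with a difference of −4.32 ± 1.63 (edgeR adjusted p = 0.0458). For both synthases the groups overlapped, and the first WT replicate of each time was well above the second. TKPR1, which reduces the polyketides, had 9.46, 4.26, 3.58 and 4.21 CPM in csa SD, against 27.2, 11.6, 32.9 and 15.3 CPM in WT SD. Its groups did not overlap, and the difference was −2.12 ± 0.63 (edgeR adjusted p = 0.0157). DPW and TKPR1 were the genes of the 8 whose groups were apart in this comparison. How many of all genes tested had groups apart was not counted, here or in the comparisons below.

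The last step is export. ABCG15, the half-size ABC transporter that carries precursors out of the tapetum, had 8.75, 12.7, 1.69 and 1.42 CPM in csa SD, against 45.4, 3.88, 29.8 and 8.30 CPM in WT SD. The csa libraries of 16:00 lay above the second WT replicate of either time, and the difference was −2.44 ± 0.83 (edgeR adjusted p = 0.0296).

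**Figure D1:**
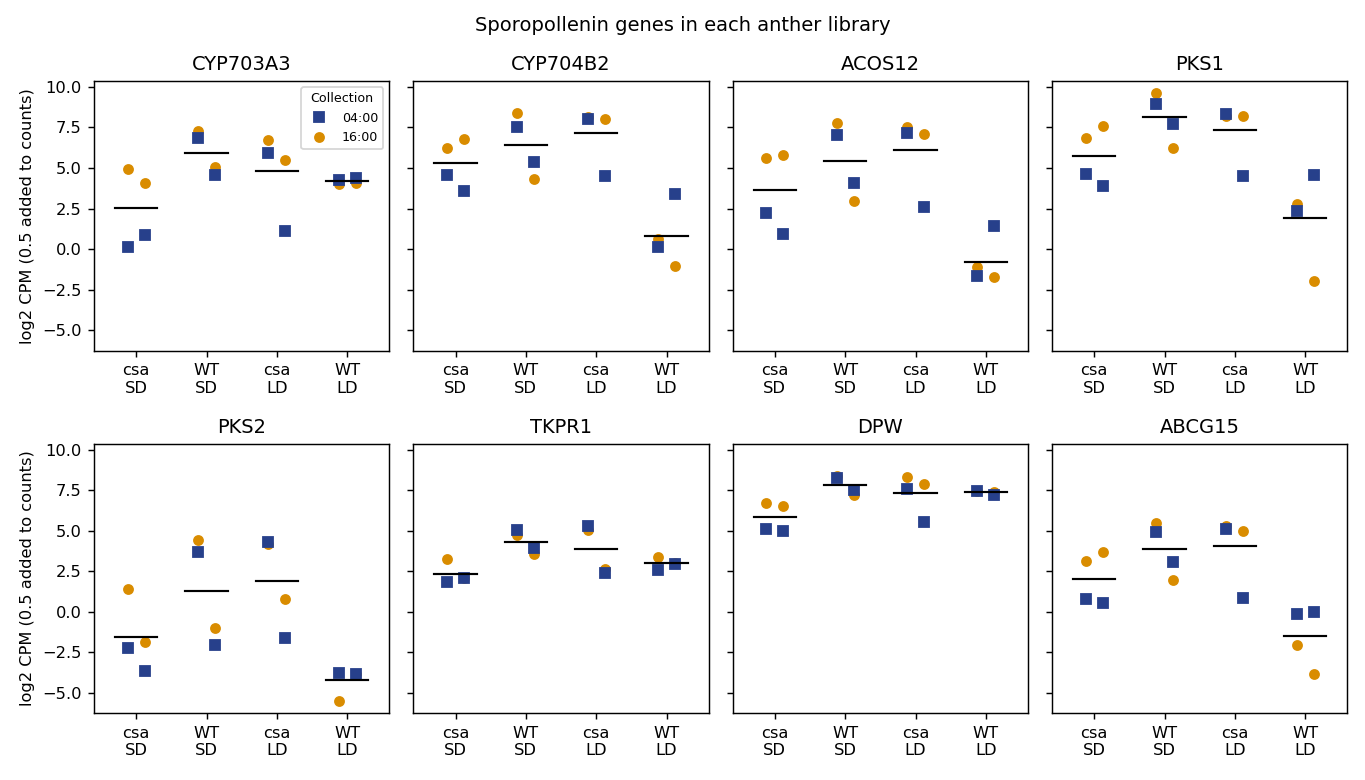
Level of each of the 8 genes in the 16 anther libraries, as log2 CPM with 0.5 added to the counts, with csa left of WT for SD and for LD; squares are 04:00 libraries, circles 16:00 libraries, replicate 1 stands left of replicate 2, and lines mark group means. WT LD has the lowest mean of the 4 groups for CYP704B2, ACOS12, PKS1, PKS2 and ABCG15, while DPW spans 149 to 177 CPM in those libraries.

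The calls for SD rested on few libraries. When each anther library was left out in turn, between 2 and 8 of the 8 genes were lower in csa SD. CYP703A3 (highest edgeR adjusted p = 0.0268) and DPW kept their call in all 16 such fits. Without WT SD 16:00 replicate 1, in which all 8 genes were higher than in its partner, CYP703A3 and DPW alone passed, and the same held without csa SD 04:00 replicate 1 or without csa SD 16:00 replicate 2. Without WT SD 04:00 replicate 1, csa SD 16:00 replicate 1 or csa SD 04:00 replicate 2, TKPR1 passed beside them. PKS1 (highest adjusted p = 0.142) and ABCG15 (0.237) lost their call in these 6 fits and in no other. ACOS12 (0.427) lost it in those 6 and without either csa LD replicate of 16:00, and PKS2 (0.586) in those 6 and without any 1 of the 4 WT LD libraries. CYP704B2 passed only without WT SD 16:00 replicate 2 (adjusted p = 0.0398), its lowest WT library.

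In long days the direction was the opposite. Levels in csa anthers were higher than in WT anthers for 5 of the 8 genes, CYP704B2, ACOS12, PKS1, PKS2 and ABCG15, and lower for none. Of all genes tested 18.7% were higher and 16.5% lower (edgeR). The median log2 difference was 5.46 over the 8 genes and 0.04 over all genes. The summed late pollen markers stood the other way round, with 5 of 5 lower in csa LD, and their part in the result was not tested.

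The 5 genes were low in WT LD to different degrees. PKS2 had at most 1 count per library there and ABCG15 1 to 20, while ACOS12 had 6 to 56, CYP704B2 10 to 218 and PKS1 5 to 507. CYP704B2 had 281, 257, 261 and 22.9 CPM in csa LD, against 1.54, 0.473, 1.07 and 10.4 CPM in WT LD, a difference of 6.24 ± 1.14 (edgeR adjusted p = 0.00186). ACOS12 had 184, 139, 146 and 5.91 CPM in csa LD, against 0.440, 0.284, 0.292 and 2.66 CPM in WT LD, a difference of 7.12 ± 1.38 (edgeR adjusted p = 0.00249). For both genes every csa library lay above every WT library, and csa LD 04:00 replicate 2 was the lowest of csa by far. ABCG15 had 39.3, 32.2, 33.7 and 1.81 CPM in csa LD, against 0.220, 0.0473, 0.875 and 0.951 CPM in WT LD, a difference of 6.03 ± 1.10 (edgeR adjusted p = 0.00187). The groups of this exporter did not overlap either, although the lowest csa library was close to the highest WT library.

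PKS1 had 300, 297, 324 and 23.1 CPM in csa LD, against 6.74, 0.237, 5.15 and 24.1 CPM in WT LD, a difference of 4.90 ± 1.04 (edgeR adjusted p = 0.00407). In PKS1 the groups overlapped, because WT LD 04:00 replicate 2 lay just above the lowest csa library. PKS2 had 18.3, 1.67, 20.0 and 0.302 CPM in csa LD, against 0, 0.0473, 0.0486 and 0.0475 CPM in WT LD. It totalled 872 counts in csa LD and 3 in WT LD, a ratio of depth-scaled sums of 289 (95% interval 98.4 to 1402, which covers counting error only), and the edgeR adjusted p was 0.0172. Groups were apart in LD for CYP704B2, ACOS12, PKS2 and ABCG15. PKS2 lost its call without any 1 of the 4 WT LD libraries or without the first csa LD replicate of either time (highest edgeR adjusted p = 0.223).

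The other 3 genes had at least 124 counts in every WT LD library, and none of them passed the test. CYP703A3 had 104, 45.0, 59.9 and 2.12 CPM in csa LD, against 16.1, 16.9, 18.9 and 20.5 CPM in WT LD (log2 difference 1.31 ± 0.77, edgeR adjusted p = 0.209). DPW had 317, 232, 189 and 46.7 CPM in csa LD, against 177, 164, 171 and 149 CPM in WT LD (0.02 ± 0.36, edgeR adjusted p = 0.968). TKPR1 had 33.6, 6.13, 39.2 and 5.27 CPM in csa LD, against 10.3, 8.19, 6.02 and 7.80 CPM in WT LD (1.29 ± 0.61, edgeR adjusted p = 0.119). In all 3 genes the WT libraries were close together and the csa libraries fell on both sides of them. Without csa LD 04:00 replicate 2, CYP703A3 (edgeR adjusted p = 0.0382) and TKPR1 (0.0306) passed as higher in csa LD.

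The genotype difference was more negative in SD than in LD for all 8 genes, as tested by the genotype by photoperiod term. Of all genes tested 9.65% had a negative and 8.15% a positive term (edgeR). The median of the term was −7.92 over the 8 genes and −0.01 over all genes. For the hydroxylases it was −5.16 ± 1.17 for CYP703A3 (edgeR adjusted p = 0.0142) and −8.08 ± 1.44 for CYP704B2 (0.00664). It was −9.95 ± 1.74 for ACOS12 (edgeR adjusted p = 0.00633) and −2.15 ± 0.51 for DPW (0.0167). After these came PKS1 at −7.76 ± 1.40 (edgeR adjusted p = 0.00664), PKS2 at −12.23 ± 2.78 (0.0144), TKPR1 at −3.41 ± 0.87 (0.0221) and ABCG15 at −8.47 ± 1.39 (0.00551). The value for PKS2 depends on the small count that the fit adds to libraries at or near 0. Between 6 and 8 genes passed when a library was left out. PKS2 did not pass without the first WT SD replicate of either time or without csa LD 04:00 replicate 1 (highest edgeR adjusted p = 0.173). TKPR1 did not pass without replicate 1 of csa SD 04:00, WT SD 16:00, csa LD 16:00, csa LD 04:00 or WT LD 04:00 (highest 0.0651).

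**Figure D2:**
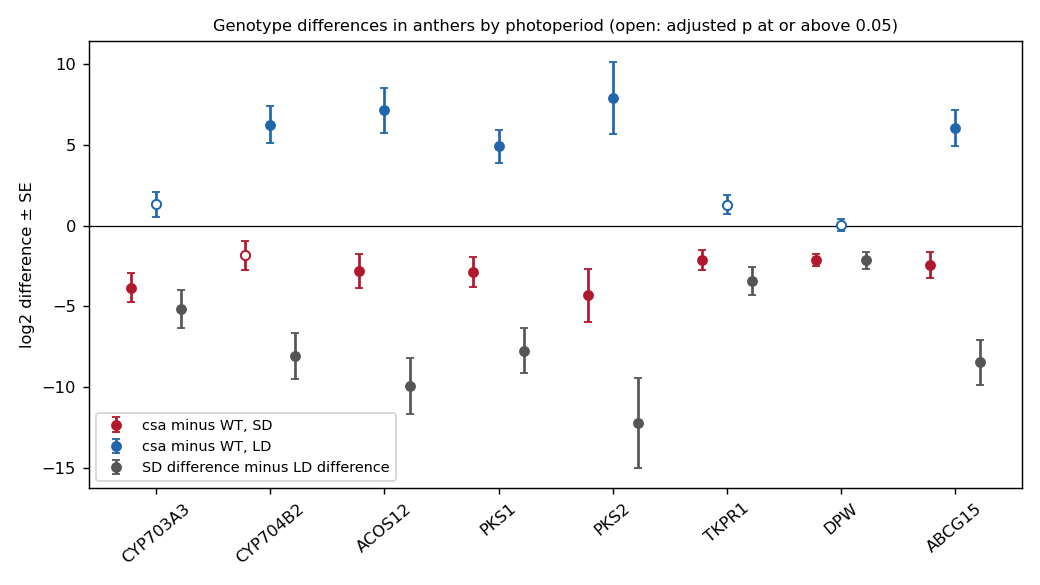
Log2 fold change of csa over WT with its standard error for each of the 8 genes in SD anthers (red) and LD anthers (blue), and the SD minus the LD difference (grey), from the edgeR fit; open points did not pass. All 8 SD values lie below 0, from −1.84 to −4.32, and the LD values run from 0.02 for DPW to 7.90 for PKS2.

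The same libraries can be read by photoperiod within a genotype, and these comparisons share their libraries with those above. In WT, 5 of the 8 genes were higher in SD than in LD anthers and none was lower. Of all genes tested 14.3% were higher in SD and 14.6% lower (edgeR). The differences were 5.82 ± 1.12 for CYP704B2 (edgeR adjusted p = 0.00361), 6.87 ± 1.37 for ACOS12 (0.00425), 5.70 ± 1.08 for PKS1 (0.00332), 7.71 ± 2.25 for PKS2 (0.0249) and 5.85 ± 1.10 for ABCG15 (0.00327). That of PKS2, with 3 counts in all of WT LD, again depends on the small count added by the fit. CYP703A3 at 2.10 ± 0.78 (edgeR adjusted p = 0.0628), DPW at 0.48 ± 0.36 (0.332) and TKPR1 at 1.38 ± 0.61 (0.106) did not pass. All WT SD libraries lay above all WT LD libraries for every gene but DPW, and the share of all genes so separated was not counted. PKS2 lost its call without any 1 of the WT LD libraries or without the first WT SD replicate of either time (highest edgeR adjusted p = 0.337). CYP703A3 passed in 4 such fits, without the second WT SD replicate of either time or without csa LD 04:00 replicate 1 or 2 (lowest edgeR adjusted p = 0.0158). When only the WT libraries were fitted, CYP703A3 (edgeR adjusted p = 0.0378) and TKPR1 (0.0235) passed as well. The summed late pollen markers stood the other way round, at 26.2 to 138 CPM in WT SD and 170 to 502 CPM in WT LD. Of the 5 markers 1 passed as lower in SD and 0 as higher (edgeR). The part of these markers in the photoperiod differences was not tested.

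Within csa, 3 genes were lower in SD than in LD anthers, against 8.28% lower and 7.24% higher over all genes (edgeR). They were CYP703A3 at −3.06 ± 0.87 (edgeR adjusted p = 0.0355), DPW at −1.67 ± 0.37 (0.0131) and TKPR1 at −2.03 ± 0.63 (0.0477). The other 5 had differences between −2.07 for PKS1 (edgeR adjusted p = 0.137) and −4.52 for PKS2 (0.0796). The summed late pollen markers were also lower in csa SD (1.16 to 1.66 CPM) than in csa LD (2.18 to 87.2 CPM), and their part was not tested. None of the 8 genes had groups apart in this comparison, since csa LD 04:00 replicate 2 lay within the range of csa SD for each. For PKS2 (1.67 CPM) and TKPR1 (6.13 CPM), csa LD 16:00 replicate 2 lay within that range too. This comparison depended on the libraries and on the tool, and calls over all genes also varied with the library left out. Between 0 and 6 genes passed when a library was left out. TKPR1 lost its call in 14 of the 16 fits (highest edgeR adjusted p = 0.297), CYP703A3 in 7 (0.365) and DPW in 2 (0.0562). Without csa LD 04:00 replicate 2, DPW, CYP703A3 and TKPR1 passed together with ABCG15, ACOS12 and PKS2. DESeq2 called 6 genes lower, ABCG15, PKS2 and ACOS12 in addition, and a fit of the csa libraries alone called 5 (CYP703A3, DPW, CYP704B2, ABCG15 and ACOS12). The shares of all genes called by DESeq2 and by the csa libraries alone are not given here, so these counts have no background beside them.

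By time of day, none of the 8 genes passed the test between 04:00 and 16:00 in WT anthers, averaged over SD and LD, while 16.7% of all genes did in either direction (edgeR). Differences in WT ran from −0.11 ± 0.76 for CYP703A3 to 1.14 ± 1.26 for ABCG15, none passed at an unadjusted p below 0.05, and DESeq2 called 0. In csa, 2 genes were lower at 04:00 than at 16:00, against 17.5% lower and 14.7% higher over all genes. They were CYP703A3 at −2.64 ± 0.86 (edgeR adjusted p = 0.0342) and DPW at −1.40 ± 0.36 (0.0123). The comparison averages SD and LD. In csa SD CYP703A3 had 1.08 and 1.84 CPM at 04:00, against 30.0 and 17.0 CPM at 16:00. In csa LD it had 59.9 and 2.12 CPM at 04:00, against 104 and 45.0 CPM at 16:00, so that the times overlapped in LD and the 04:00 replicates were far apart. DPW had 34.5 and 31.1 CPM at 04:00 in csa SD, against 104 and 92.1 CPM at 16:00, and 189 and 46.7 CPM at 04:00 in csa LD, against 317 and 232 CPM at 16:00. DPW kept its call whichever library was left out, and CYP703A3 lost it in 7 of 16 fits, those without csa LD 16:00 replicate 1, any 1 of the 4 csa SD libraries or either WT LD replicate of 04:00 (highest edgeR adjusted p = 0.123). In csa LD 04:00 all 8 genes were lower in replicate 2 than in replicate 1. A difference between the genotypes in this change was not tested.

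In some groups the replicates differed together. In WT SD 16:00, WT SD 04:00, csa LD 16:00 and csa LD 04:00 replicate 1 was higher than replicate 2 for all 8 genes on plain library totals. After the composition scaling used by the fits (TMM), the order of PKS1 in csa LD 16:00 turned, from 300 and 297 CPM to 290 and 296 CPM. How many of all genes were higher in replicate 1 was not counted. The median ratio over the 8 genes was 11.0 in WT SD 16:00, 4.08 in WT SD 04:00, 1.34 in csa LD 16:00 and 16.3 in csa LD 04:00. In csa SD 16:00 4 genes were higher in either replicate, and in csa SD 04:00 6 genes in one and 2 in the other. The summed level of the 8 genes spanned 66.9 to 481 CPM in csa SD and 296 to 1914 CPM in WT SD, and 108 to 1277 CPM in csa LD and 190 to 215 CPM in WT LD. DPW alone made up 149 to 177 CPM of the sum in WT LD. The other genes were less even there, and the largest ratio between replicates was 28.5 at 16:00 and 9.69 at 04:00. The late pollen markers did not follow one order with it. They summed to 51.3 and 138 CPM in the WT SD 16:00 replicates whose 8 genes summed to 1914 and 296 CPM, but to 122 and 26.2 CPM in the WT SD 04:00 replicates whose genes summed to 1293 and 498 CPM.

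As a description, log2 CPM of the 8 genes were correlated over the 16 anther libraries, which share library, depth and group structure. All 28 pairs had a positive Pearson r, from 0.27 for CYP704B2 with DPW to 0.98 for CYP704B2 with ACOS12, with a median of 0.71. The 5 genes that were low in WT LD, CYP704B2, ABCG15, PKS1, PKS2 and ACOS12, had a median r of 0.94 among themselves (10 pairs, 0.79 to 0.98). CYP703A3, DPW and TKPR1 had a median of 0.81 among themselves (3 pairs, 0.76 to 0.95), and pairs across these subsets a median of 0.53 (15 pairs, 0.27 to 0.76). The subsets were seen in the data and have no test. When each library's deviation from its group mean was used instead, all 28 pairs were again positive, with a median of 0.83. The deviations of the 2 libraries of a group mirror each other, so the 16 points hold 8 independent values. The median gaps between replicates were widest in csa LD 04:00, WT SD 16:00 and WT SD 04:00. In that measure the pairs across the subsets had a median of 0.75.

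**Figure D3:**
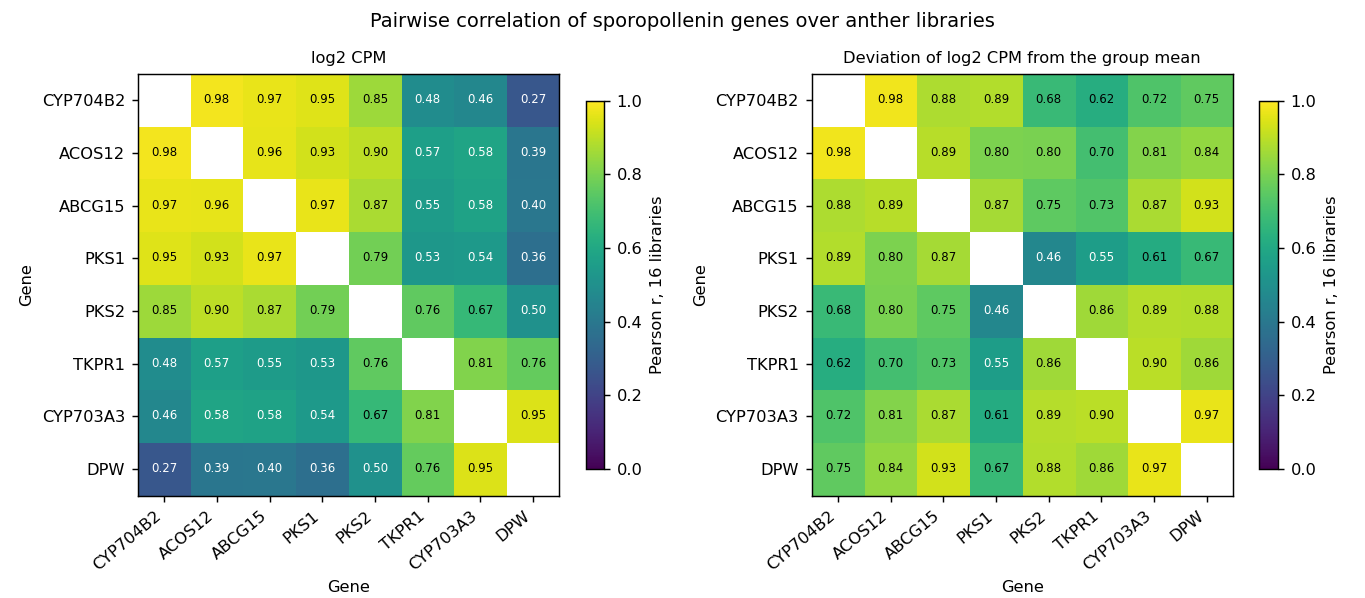
Pearson r between each pair of the 8 genes over the 16 anther libraries, for log2 CPM and for deviations from group means, as shaded matrices with the values printed. The deviations of the 2 libraries of a group mirror each other. The block of CYP704B2, ABCG15, PKS1, PKS2 and ACOS12 holds values from 0.79 to 0.98 for log2 CPM, and DPW has its lowest value with CYP704B2, 0.27.

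Outside the 8 genes, the genes whose log2 CPM most resembled their mean standardised profile over the 16 libraries were LOC_Os04g48400 and LOC_Os03g47896, each with r = 0.97. TKPR2, the other tetraketide pyrone reductase, came 17th in the same ranking with r = 0.93.

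Other genes of pollen wall and cuticle formation did not share one pattern. Of 8 tested, 5 were lower and 1 higher in csa than in WT in SD, with a median log2 difference of −1.26. ABCG26, a further half-size ABC transporter, averaged 168 ± 16.5 CPM in csa SD and 503 ± 66.2 CPM in WT SD (SD over 4 libraries, log2 difference −1.64, edgeR adjusted p = 3.7e-06), and was also lower in csa LD at −1.21. RAFTIN1, a protein of the tapetal Ubisch bodies, was lower at −1.50 in SD and −1.20 in LD. NP1, an oxidoreductase of the tapetum, was lower in SD at −3.11 (edgeR adjusted p = 0.000884) and did not pass in LD at −0.94 (0.135). WDA1, a gene of cuticular wax synthesis, was higher in csa at 0.85 in SD and 0.36 in LD. In LD, 2 of the 8 were higher and 4 lower in csa, with a median of −0.70.

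TKPR2 stood with the polyketide genes. It had 7.57, 2.54, 0 and 0.0526 CPM in csa SD, against 78.8, 0.176, 36.3 and 0.321 CPM in WT SD (edgeR adjusted p = 0.0338). In LD it had 33.0, 8.96, 56.1 and 0.302 CPM in csa, against 0.0440, 0.0947, 0 and 0.0475 CPM in WT (edgeR adjusted p = 0.0174), which is 2187 against 4 counts and a ratio of 543 (95% counting interval 212 to 1994). Its highest library was also that of PKS2 in csa SD, WT SD and csa LD. Among the 8 other genes, TKPR2 alone had a negative genotype by photoperiod term (edgeR adjusted p = 0.0130), while GPAT3 and WDA1 had positive ones.

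Transcription factors of the tapetum had smaller median log2 differences between csa and WT than the 8 genes. The medians were −0.97 against −2.63 in SD and −0.53 against 5.46 in LD. Of 7 tested, 5 were lower in csa than in WT in SD (UDT1, GAMYB, TIP2, TDR and EAT1) and 4 in LD, and none was higher in either. EAT1, a bHLH factor that acts late in the tapetum, averaged 47.1 ± 9.85 CPM in csa SD and 123 ± 30.0 CPM in WT SD (SD over 4 libraries, log2 difference −1.43 ± 0.11), and in LD its difference was −0.82 ± 0.11. UDT1, a bHLH factor of early tapetum differentiation, fell by 0.92 in SD and had a difference of 0.01 in LD. EAT1 (edgeR adjusted p = 0.0197) and UDT1 (0.0174) had a negative genotype by photoperiod term, and the other 5 did not pass. The summed level of the 7 genes was 312 to 367 CPM in csa SD and 517 to 632 CPM in WT SD, and 344 to 615 CPM in csa LD and 641 to 731 CPM in WT LD. GAMYB, TDR and EAT1 made up most of this sum, and not every gene of the list followed it. UDT1 averaged 12.1 ± 2.50 CPM in csa SD and 25.6 ± 16.6 CPM in WT SD, and 15.2 ± 4.70 CPM in csa LD against 15.0 ± 6.92 CPM in WT LD. PTC1, a PHD-finger regulator of tapetal development, was low throughout, with 0.323 ± 0.239 CPM in csa SD and 0.821 ± 0.849 CPM in WT SD, and 1.15 ± 1.09 CPM in csa LD against 0.253 ± 0.220 CPM in WT LD. Neither its difference in LD (2.28, edgeR adjusted p = 0.0757) nor that of MYB80 (1.81, 0.162) passed, although both were larger than those of CYP703A3, DPW and TKPR1 in LD. Meiosis markers summed to 86.4 to 92.0 CPM in csa SD and 91.8 to 141 CPM in WT SD, and to 86.7 to 102 CPM in csa LD and 173 to 195 CPM in WT LD. The differences of this sum came mainly from MEL1, a germ cell Argonaute, which averaged 5.71 ± 1.31 CPM in csa SD and 38.8 ± 14.7 CPM in WT SD, and 16.5 ± 5.77 CPM in csa LD against 112 ± 13.8 CPM in WT LD. Of the 7 meiosis markers, MEL1 and PAIR1 were lower in csa SD, and MEL1 and REC8 were lower and DMC1A higher in csa LD (edgeR). DMC1A, a meiotic recombinase, averaged 6.64 ± 2.86 CPM in csa LD against 4.25 ± 2.56 CPM in WT LD. Leaf markers summed to 1427 to 3036 CPM in csa SD and 426 to 2279 CPM in WT SD, and to 1073 to 1621 CPM in csa LD and 876 to 1583 CPM in WT LD. The part of these markers in the differences of the 8 genes was not tested.

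In flag leaves, which make no pollen wall, 5 of the 8 genes were at or near 0. ACOS12 had no count in any of the 48 libraries, and PKS1 had 2 counts in all, PKS2 6, ABCG15 8 and CYP704B2 43. CYP703A3, DPW and TKPR1 passed the filter on low counts. TKPR1 ranged from 2.98 to 8.02 CPM with a median of 4.66, DPW from 0 to 0.975 with a median of 0.298, and CYP703A3 from 0 to 2.91 with a median of 0.514. For TKPR1, 8 of the 48 leaf libraries reached the range of WT LD anthers, 6.02 to 10.3 CPM, and 40 lay below it. The tissues are separate tables and were not tested against each other.

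None of the 3 genes passed the test between csa and WT leaves, in SD (0.493% of 22095 genes called in either direction) or in LD (3.42%). Their log2 differences lay between −0.24 and 0.25, with edgeR adjusted p from 0.901 to 0.980. At an unadjusted p below 0.05 there was also none. The result was the same without 12:00, and DESeq2 called 0 as well. On plain library totals, a setting chosen after seeing the data, again none passed, while over all genes 27 were higher and 79 lower in csa SD (48 and 61 under TMM scaling, the composition correction used by the fits) and 196 higher and 1465 lower in csa LD (395 and 361), where the median of all genes was −0.11.

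Photoperiod was compared in leaves after the values had been seen. DPW was higher in SD than in LD in both genotypes. Its median was 0.374 CPM in csa SD and 0.0734 CPM in csa LD (log2 difference 1.58 ± 0.47, edgeR adjusted p = 0.00710, with 23.2% of all genes higher in SD). In WT leaves it was 0.442 CPM in SD and 0.131 CPM in LD (1.48 ± 0.44, adjusted p = 0.00681, with 24.2% of all genes higher and 21.8% lower; 4145 genes were higher and 5694 lower on plain totals, 5339 and 4809 under TMM scaling). The WT call was lost without WT SD 04:00 replicate 1 (edgeR adjusted p = 0.970), whose partner had 0 counts of DPW. CYP703A3 did not pass in csa (−0.80 ± 0.45, edgeR adjusted p = 0.150) or in WT (−0.95 ± 0.50, 0.121). It passed in WT when WT SD 12:00 replicate 2 was left out (edgeR adjusted p = 0.0107), the partner of a library with 0 counts of CYP703A3. Both WT SD libraries of 08:00 also had 0, so the size of this difference depends on the small count that the fit adds. WT SD 12:00 replicate 2 and its partner are among the libraries whose marker genes lay nearer the other genotype. Without 12:00, DPW still passed in both genotypes and CYP703A3 in neither (edgeR). TKPR1 was lower in SD in csa (−0.23 ± 0.10, edgeR adjusted p = 0.0461, with 19.9% of all genes lower), and this was lost without 12:00 (0.149), on plain library totals (0.0852) and in 15 of the 48 fits that left out 1 library. In WT leaves TKPR1 did not pass (−0.19 ± 0.09, edgeR adjusted p = 0.0974), and on plain totals it did (0.0442).

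CYP703A3 varied over the day in leaves. Over the 8 libraries of each time, its median was 0.0291 CPM at 08:00, 0.392 at 12:00, 2.13 at 16:00, 2.41 at 20:00, 0.970 at 00:00 and 0.275 at 04:00. At 08:00 it had 0 to 3 counts per library and no count in 4 of the 8, and at 20:00 27 to 44 counts. Every library of 20:00 thus lay above every library of 08:00, in csa and in WT and under both photoperiods. A cosine curve with a period of 24 h was fitted to each genotype and photoperiod after the values had been seen. Its peak-to-trough difference was 4.13 in csa SD (edgeR adjusted p = 4.6e-05), 4.71 in WT SD (1.0e-05), 3.90 in csa LD (0.000147) and 4.00 in WT LD (4.9e-05), all on the log2 scale, with fitted peaks between 18.1 and 19.3 h. Such a pattern was common in leaves, being called for 70.3% of genes in csa SD, 67.7% in WT SD, 66.5% in csa LD and 71.3% in WT LD, with a median peak-to-trough difference of 1.31 to 1.42 over all genes. The fit uses TMM scaling, whose factors followed the clock in leaves, from 0.63 to 0.79 at 08:00 and from 1.16 to 1.41 at 20:00, while the levels given here are on plain library totals. On plain totals CYP703A3 passed in all 4 again (4.51 to 5.08, fitted peaks between 18.6 and 19.6 h). Without 12:00 it passed in all 4 as well (edgeR with TMM scaling).

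TKPR1 passed in all 4 with differences of 0.54 to 0.72 under TMM scaling, with fitted peaks between 7.25 and 12.2 h, but its pattern turned with the scaling. On plain totals it passed in csa LD (0.71, edgeR adjusted p = 0.00661) and in WT LD (0.55, 0.0474), with fitted peaks at 18.4 and 17.8 h, and not in csa SD (0.104) or WT SD (0.672). In csa LD, for example, TKPR1 had 4.74 and 3.50 CPM at 08:00 and 7.10 and 6.68 CPM at 20:00 on plain totals, and 7.21 and 5.57 CPM at 08:00 and 5.27 and 4.75 CPM at 20:00 after TMM scaling. Its TMM-scaled call in csa LD was also lost without 12:00 (edgeR adjusted p = 0.0574). DPW passed in WT LD alone (2.64, edgeR adjusted p = 0.0401), and on plain totals in no group (0.126 in WT LD). Without 12:00 DPW again passed in WT LD alone. The sources used here do not say whether counting kept the strand, so reads of an overlapping transcript cannot be told apart from those of CYP703A3.

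**Figure D4:**
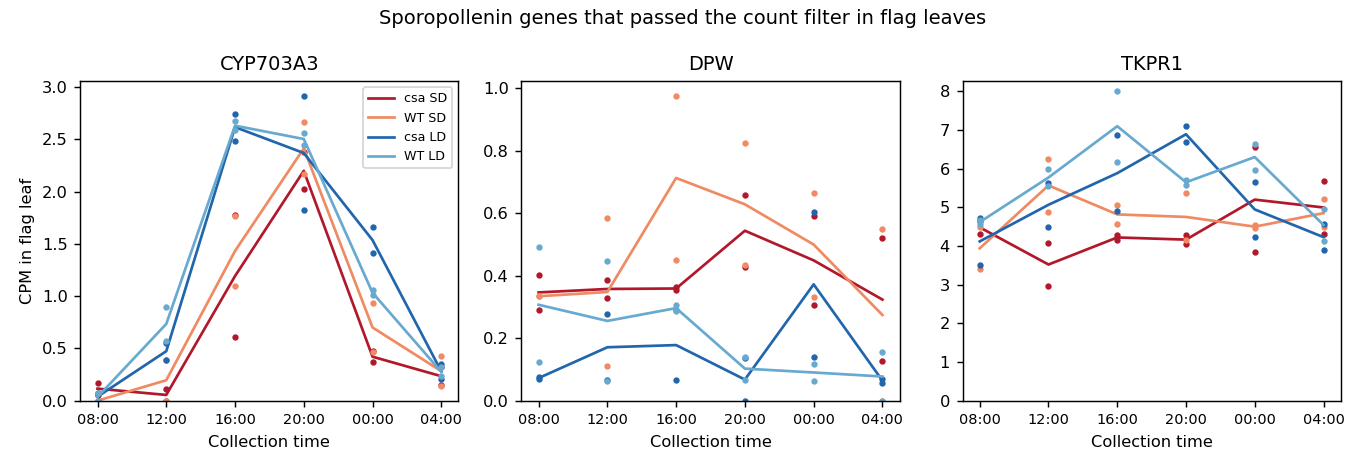
Leaf levels of CYP703A3, DPW and TKPR1 in CPM on plain library totals by time of day, with points for libraries and 1 line per genotype and photoperiod through the means of 2 replicates. CYP703A3 has its lowest median at 08:00, 0.0291 CPM, and its highest at 20:00, 2.41 CPM. The SD 12:00 libraries are drawn under their labels, although their marker genes lay nearer the other genotype.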

How the data were processed

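The authors deposited raw read counts per gene, 1 table per tissue, with rice locus identifiers; 185 of the 55986 genes carry an identifier of no chromosome. The labels give TRIzol extraction of total RNA. The name of an aligner, a counting program or a genome build, and the strand setting, is not given in these sources, so no coordinates are printed. Symbols beyond the 8 were paired with identifiers from memory; a RefSeq gene table places 17 of 41 listed symbols, CYP703A3 among them, on the identifier's chromosome, 1 on another, and lacks 23. Of the 41 listed genes 40 were in the tables. The 8 genes and all lists were chosen with earlier results of these data known.

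Counts were fitted per tissue over all its libraries in R 4.3.3 with edgeR 4.0.16 (TMM scaling, factors 0.93 to 1.05 in anthers and 0.63 to 1.41 in leaves; filterByExpr by group, minimum count 10; quasi-likelihood F-test on group means, times weighted equally). It kept 25203 of 38063 genes with any count in anthers, the 8 included, and 22095 of 38890 in leaves. The p-values were Benjamini-Hochberg adjusted over all tested genes at 0.05. Correlations used log2 CPM with 0.5 added to counts. All 8 genes are described; other list genes were named if they passed, lowest p first, and likeness names the genes of highest r.

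Replicate numbers showed no general pairing of libraries. Deviations of same-numbered libraries correlated between −0.268 and 0.329 over 28 pairs of anther groups, with 6 pairs above 0.1 and 7 below −0.1. This check does not decide pairing within single groups, and no label pairs the libraries, so the main fits have no block. Replicates were not duplicates (chi-square per gene at least 8.41 in anthers and 6.63 in leaves). Alternatives were DESeq2 1.42.0, RLE scaling, no filter on low counts, the replicate block, the compared libraries alone, leaving out each library, leaving out 12:00 and, in leaves, plain library totals. The leaf comparisons of photoperiod and time of day and their alternatives were added after the values had been seen.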

Additional observations from a re-analysis of the deposited data

Results flagged for a closer look

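Outlying libraries were looked for in each of the 4 anther groups of each of the 8 genes, by the gap of the highest or lowest of the 4 libraries relative to the range of the group. Of 32 groups 7 passed. The threshold flags about 1 in 20 groups of independent, normally distributed values. Each group here mixes both collection times and the 8 genes share their libraries, so the count cannot be set against that rate. In csa SD the highest library of PKS2 (2.65 CPM) and of TKPR1 (9.46 CPM) stood apart, both being 16:00 replicate 1. In csa LD the lowest library of CYP704B2 (22.9 CPM) and of PKS1 (23.1 CPM) stood apart, both being 04:00 replicate 2. In WT LD the highest library of CYP704B2 (10.4 CPM) and of ACOS12 (2.66 CPM) stood apart, both being 04:00 replicate 2, and PKS2 was flagged for its lowest library, at 0 where the others had 1 count each.

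The genotype difference of all 8 genes differed between SD and LD by the genotype by photoperiod term of the edgeR fit. The log2 terms were −5.16 for CYP703A3, −8.08 for CYP704B2, −8.47 for ABCG15, −7.76 for PKS1, −12.23 for PKS2, −9.95 for ACOS12, −2.15 for DPW and −3.41 for TKPR1.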

How the results depend on the processing

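With single values of the 8 genes, 360 values under alternatives other than leaving out a library kept their side of the threshold, 34 passed in addition, 10 no longer passed, and no value that passed under either setting changed sign. RLE scaling changed none of the 80 it was tried on. Without the filter on low counts, all 8 genes passed in SD against LD in WT (higher) and in csa (lower). In that fit 4 rose at 04:00 in WT and 7 fell at 04:00 in csa, and it gave 20 of the 34 added passes. Fold changes stayed close while adjusted p fell far. CYP704B2 in csa SD against WT SD had −1.89 with an edgeR adjusted p of 2.0e-53, against 0.109 with the filter. ACOS12 in csa SD against LD went from 0.0692 to 9.7e-121. The cause was not tested, and these passes are not taken as added evidence. In csa SD against LD, DESeq2 called 6 and the compared libraries alone 5. For anthers, counts over all genes are not given here for alternatives other than leaving out a library. TKPR1 was lost in csa leaves between photoperiods in 4 alternatives (no filter, without 12:00, compared libraries alone, plain library totals), which left 0 genes lower, and in the 24 h pattern of csa LD without 12:00, which left 1 gene called. Plain library totals, added after seeing the data, also left 1 gene called in the 24 h pattern of csa SD and of WT SD, where TKPR1 was lost, and gave 1 gene lower in SD in WT leaves.

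Over all genes, csa and WT leaves differed in SD for 505 genes without the filter, 194 by DESeq2 and 266 without 12:00, against 109, and in LD for 1515 without the filter, 327 without 12:00 and 1661 on plain library totals, against 756. Leaving out 1 library gave 2 to 8 of the 8 genes lower in csa SD against WT SD, 0 to 6 in csa SD against LD and 1 to 5 in csa 04:00 against 16:00. In leaves it gave 0 to 1 of the genes higher in SD in WT, 0 to 1 lower in WT and 0 to 1 lower in csa. Called genes ranged from 2157 to 4772 for genotype by photoperiod, 4128 to 7558 for SD against LD in WT anthers, 1239 to 4155 in csa anthers and 2075 to 4506 for 04:00 against 16:00 in WT.

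The replicate numbers share no label of pairing. With them as a block, 5 of the 8 genes instead of 2 were lower at 04:00 in csa, ACOS12, ABCG15 and PKS2 in addition, PKS2 passed in csa SD against LD (adjusted p = 0.00483) and ACOS12 did not in csa SD against WT SD (0.0893). Counts of 0 to 3 per library limit PKS2 in WT LD anthers and CYP703A3 in leaves at 08:00; with 2 replicates per group and time, the spread is estimated over all groups.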
